A study of Mus musculus with 15 samples.

Results

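The mouse collagen family was followed in inflamed ear skin through 43 protein-coding genes whose symbols consist of Col, a type number, the letter a and a chain number, such as Col1a1. They were picked by symbol from the 48795 genes of the count tables, with Col17a1 left out. The rule uses no expression value, but it was set with earlier results of these data known. They were put in classes, with 8 chains as fibrillar, 9 of basement membranes, 7 of cartilage and 19 of other types. Cartilage chains were kept apart by tissue, including those that form fibrils. Polyadenylated RNA was sequenced from ears of 5-week-old female mice in 3 groups. PMA_1002 (n = 6 libraries) received phorbol 12-myristate 13-acetate (PMA) and innate defense regulator peptide 1002. PMA_ethanol (n = 4) carries the names of PMA and of ethanol in its label. Control (n = 5) is labelled as control. The study asked how the peptide acts in sterile inflammation, for which PMA, an activator of protein kinase C, is a common skin irritant. Nothing states doses, times or mouse strain. Ethanol is absent from the label of PMA_1002, so peptide and vehicle cannot be told apart between PMA_1002 and PMA_ethanol. Whether each library is a separate animal is not labelled, and p-values here reflect only library-to-library spread, which may be technical.

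Collagens, most of them secreted and some transmembrane, are proteins in which 3 chains wind into a triple helix. Fibrillar chains form the ropes that give dermis its strength, network-forming chains make the sheet under epidermis and around vessels, and a separate set stiffens the elastic cartilage plate of the external ear. Inside the cell, hydroxylases and chaperones prepare the helix, and outside it, proteinases trim it, oxidases cross-link it and collagenases take it apart.

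Depth ran from 2656680 reads in genes (PMA_ethanol library 3) to 28585995 (PMA_1002 library 5). Levels are CPM, read counts per 1000000 of a library size adjusted by TMM, and differences are log2 fold changes with standard errors (SE) from edgeR quasi-likelihood fits over all 15 libraries. A gene was called when its Benjamini-Hochberg adjusted p over 14991 tested genes was under 0.05, and every adjusted p below is edgeR's unless another tool is named. Of the 43 chains, 40 passed the filter on low counts. Col6a4, Col19a1 and Col26a1 did not, and their highest library held 2.36, 0.428 and 1.76 CPM. Defining markers of the tissue were present in every group. Dcn and Lum of fibroblasts, Krt5, Krt14 and Krt10 of keratinocytes and Acan and Cytl1 of chondrocytes were all detected, while the chondrocyte gene Matn1 was at 0 in 13 of 15 libraries. Library 3 of PMA_ethanol, the shallowest, held the lowest levels of several collagens. Calls of the 40 chains that change when it is left out are given with the adjusted p without it.

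As a family the chains made up 2.37% ± 0.530 of reads in genes in PMA_1002 (SD, n = 6). They made up 2.26% ± 0.799 in PMA_ethanol and 3.41% ± 0.613 in Control (SD, n = 4 and 5). Relative to the TMM-adjusted library size, the values were 2.38% ± 0.537, 2.45% ± 0.823 and 3.16% ± 0.549 in the same order. Control was highest on both scales, while the order of PMA_1002 and PMA_ethanol depended on the scale. Most of the family was fibrillar on both. Per kilobase of principal transcript, the scale on which genes can be compared, Col3a1 was the most abundant chain, with 1462 ± 385 CPM per kilobase in PMA_1002, 1383 ± 572 in PMA_ethanol and 1940.0 ± 348 in Control. Col1a2 and Col1a1 followed, then Col6a1, Col8a1 and Col6a2, whose means over all libraries lay close together at 238, 234 and 213 CPM per kilobase. Length decides part of this order. Over the union of annotated exons instead of the principal transcript, Col1a2 stood at 479 and Col1a1 at 587 CPM per kilobase, so these chains changed places. The most abundant basement membrane chain, Col4a1, averaged 52.4 CPM per kilobase and the most abundant cartilage chain, Col9a3, 38.3.

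**Figure D1:**
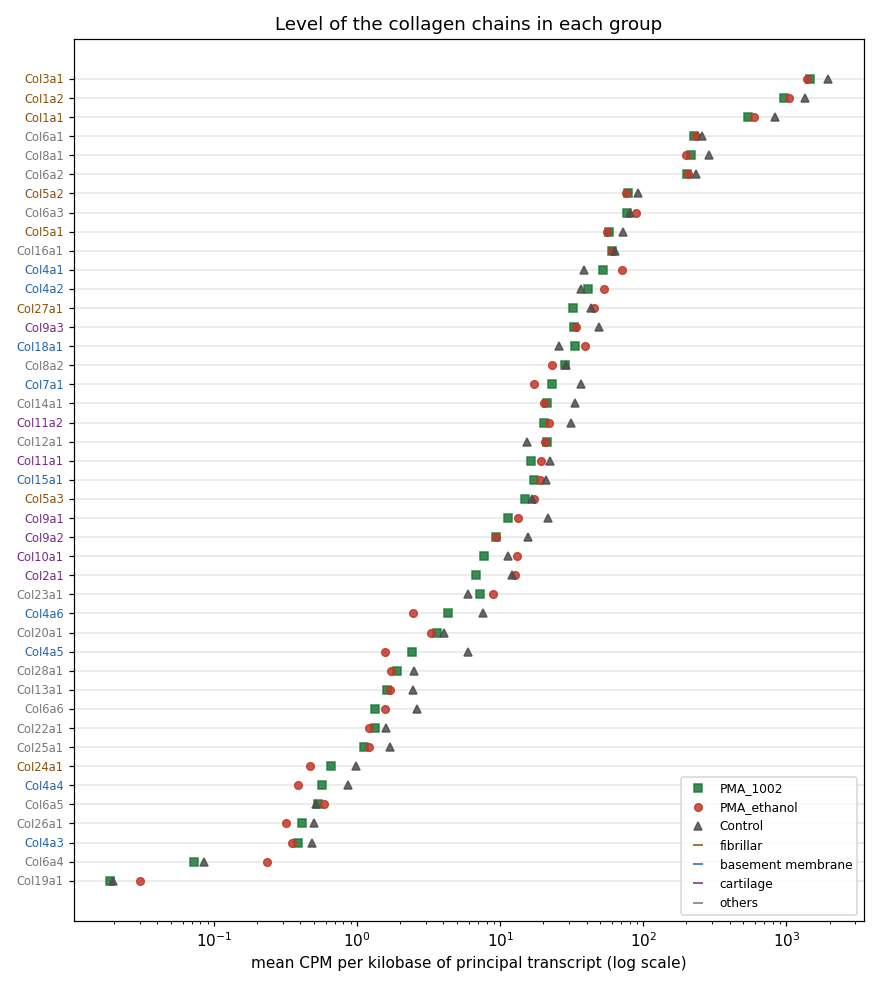
Mean level of each of the 43 collagen chains in CPM per kilobase of principal transcript (horizontal log axis), with 1 symbol per group (squares PMA_1002, circles PMA_ethanol, triangles Control) and chain names coloured by class. Col3a1, Col1a2 and Col1a1 lie at the top and Col19a1 at the bottom, and the triangles of most chains lie to the right of the other symbols.

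More chains were lower than higher in inflamed ears. In PMA_ethanol against Control, 5 chains rose and 14 fell, which is 47.5% of the 40 tested, where 68.4% of all genes were called (32.5% higher, 35.9% lower). The share of chains that fell, 35%, was thus close to the background, and the share that rose, 12.5%, was below it. With upper-quartile scaling, which shifted the median of all genes by more than 0.1, 2 chains rose and 25 fell, where 3682 of the 14991 genes rose and 7262 fell. In PMA_1002 against Control, 3 rose and 16 fell (47.5% of the chains, against 55% of all genes, of which 28.4% were higher and 26.7% lower). In PMA_1002 against PMA_ethanol, 5 rose and 4 fell (22.5%, against 35% of all genes, 17% higher and 18% lower). The median log2 fold change of the chains was -0.36 in PMA_ethanol versus Control, -0.41 in PMA_1002 versus Control and -0.05 in PMA_1002 versus PMA_ethanol, beside -0.07, -0.03 and 0.03 for all genes tested. These comparisons share libraries, so each one's values are given side by side and no overlap between them is offered. Without PMA_ethanol library 3, 42 chains passed the filter on low counts. The counts of that fit can include chains not tested over all 15 libraries, for which no adjusted p is given. In that fit 6 chains rose and 12 fell in PMA_ethanol versus Control, 3 rose and 20 fell in PMA_1002 versus Control, and 4 rose and 7 fell in PMA_1002 versus PMA_ethanol. Of the 15390 genes it tested, 4794 rose and 5258 fell, 4332 rose and 4169 fell, and 2102 rose and 2356 fell, in the same order. In bulk tissue, fewer cells of a type and less RNA per cell cannot be told apart.

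**Figure D2:**
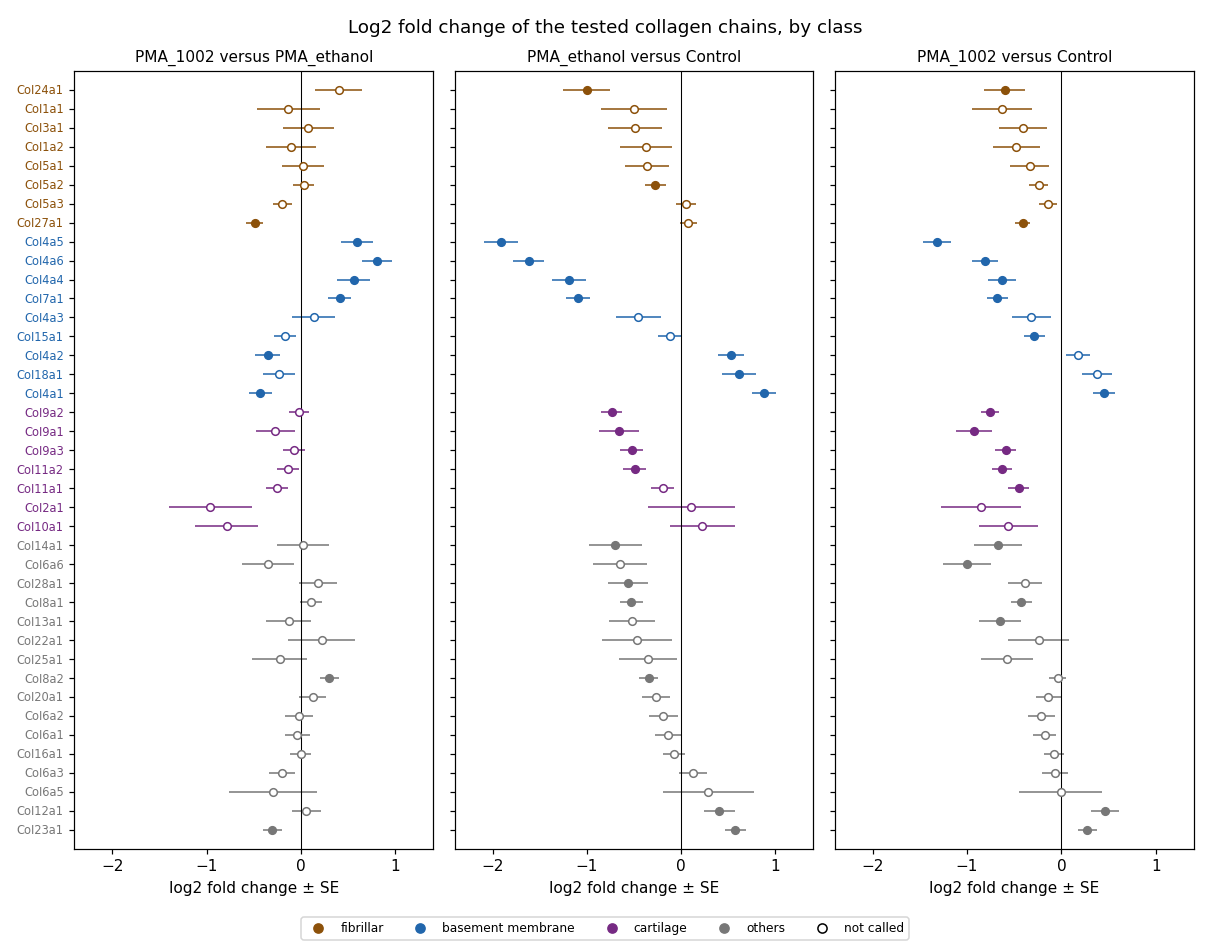
Log2 fold change with its SE for the 40 tested chains in 3 comparisons, coloured by class, with filled points for chains called by edgeR and open points for the rest. Basement membrane chains spread from -1.91 to 0.88 in PMA_ethanol versus Control, while the 5 Col9 and Col11 chains lie left of 0 in each comparison.

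The main fibrillar chains were lower on average in both inflamed groups, but none of them was called. Col1a1 and Col1a2 together form type I collagen, the bulk protein of dermis. Col1a1 had a lowest, median and highest of 1769, 3375 and 4540.4 CPM in PMA_1002, against 3409, 5435, 1454 and 3675 CPM in PMA_ethanol libraries 1 to 4. Control libraries 1 to 5 held 4097, 4139, 7279, 3678 and 5504 CPM. All 3 groups overlapped, and library 2 stood highest and library 3 lowest in PMA_ethanol. The log2 fold change was -0.50 (SE 0.354, adjusted p = 0.225) in PMA_ethanol versus Control and -0.63 (SE 0.316, adjusted p = 0.106) in PMA_1002 versus Control. Its approximate 95% interval in PMA_1002 versus Control ran from -1.30 to 0.03.

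Col1a2 ran in step with its partner. Its lowest, median and highest values were 3271, 5342 and 7457 CPM in PMA_1002, against 5956, 7622, 2666 and 6012 CPM in PMA_ethanol. Control held 6259, 6299, 9494, 5950.4 and 7949 CPM. The groups overlapped again, and the same libraries were high and low as for Col1a1. The fold changes were -0.37 (SE 0.278, adjusted p = 0.25) in PMA_ethanol versus Control and -0.48 (SE 0.248, adjusted p = 0.117) in PMA_1002 versus Control. The ratio of Col1a1 to Col1a2 CPM stayed between 0.541 and 0.698 in PMA_1002, 0.545 and 0.713 in PMA_ethanol and 0.618 and 0.767 in Control.

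Col3a1 encodes the chain of type III collagen, which is co-assembled with type I in skin and vessel walls. PMA_1002 held a lowest, median and highest of 5232, 8790.2 and 10852 CPM, against 8415, 10818, 3256 and 8298 CPM in PMA_ethanol. Control libraries held 8979.6, 9874, 13365, 9423 and 12329 CPM. Library 3 of PMA_ethanol was the lowest of all 15, and libraries 3 and 5 of Control were the highest. Differences were -0.49 (SE 0.284, adjusted p = 0.14) in PMA_ethanol versus Control and -0.41 (SE 0.254, adjusted p = 0.187) in PMA_1002 versus Control. Part of Col3a1, 141 exonic bases, is also annotated to Gm47302 on the same strand.

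Hair follicle RNA varied widely between libraries. The hair follicle level, the mean log2(CPM + 1) of 7 genes of the growing hair such as Krt71, Krt25 and Tchh, ran from 1.02 to 6.2 in PMA_1002, 1.38 to 7.77 in PMA_ethanol and 2.8 to 7.96 in Control. In each group the library with the most Col1a1, Col1a2 and Col3a1 (library 1 of PMA_1002, 2 of PMA_ethanol and 3 of Control) was also the one with the highest hair follicle level. PMA_ethanol library 3 was lowest in its group for the hair follicle level and for all 3 chains. Control library 5 came next after Control library 3 in each of them. Within PMA_ethanol, Col3a1 followed the order of the hair follicle level throughout. Some other libraries did not keep that order. PMA_1002 library 6 had the lowest hair follicle level of its group, 1.02, but 3138 CPM of Col1a1, against 1769 CPM in library 5. PMA_ethanol library 4 had a lower hair follicle level than library 1 but more Col1a1, and Control library 4 a higher one than library 1 but less Col1a1. Of the 7 hair genes 1 was called, lower, in each comparison with Control (14.3%, beside 35.9% of all genes for PMA_ethanol and 26.7% for PMA_1002). In PMA_1002 versus PMA_ethanol, 0 passed by edgeR, by DESeq2 or at an unadjusted p under 0.05, where edgeR called 35% of all genes. Even so, all 7 log2 fold changes were negative there, with a median of -2.06. They were also all negative in PMA_1002 versus Control, with a median of -1.77, while PMA_ethanol versus Control had a median of 0.20. The hair genes summed to 287 ± 421 CPM in PMA_1002, 1136 ± 1424 in PMA_ethanol and 977 ± 1279 in Control. With the hair follicle level, centred within each group, as a covariate, an alternative chosen after seeing the data, all 3 chains were called lower in PMA_ethanol than in Control (adjusted p = 0.0179, 0.0197 and 0.00993 for Col1a1, Col1a2 and Col3a1) and in PMA_1002 than in Control (adjusted p = 0.00687, 0.00555 and 0.0352). By this centring the covariate has the same mean in every group. It can take up spread within groups but cannot adjust for hair differences between groups. With it, 21 chains were called lower in PMA_ethanol versus Control and 24 in PMA_1002 versus Control. Of all 14991 genes tested, 5566 and 4385 were called lower in that fit. Without PMA_ethanol library 3, Col1a1 and Col1a2 were called lower in PMA_1002 than in Control (adjusted p = 0.0495 and 0.0473). The part that hair growth plays in these differences was not tested.

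**Figure D3:**
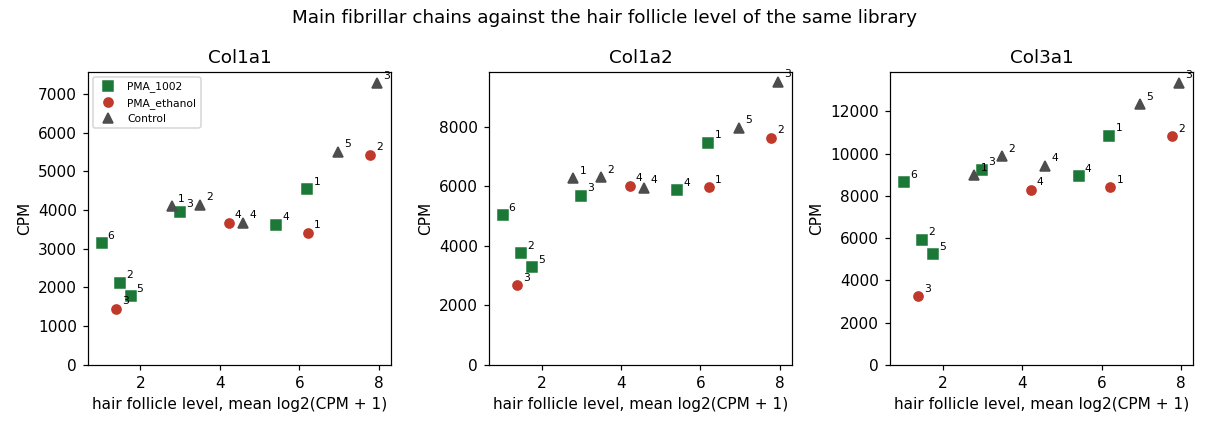
CPM of Col1a1, Col1a2 and Col3a1 (vertical axes) against the hair follicle level of the same library (horizontal axes, mean log2(CPM + 1) of 7 hair genes), 1 point per library with its replicate number. In each group the library farthest right is also the highest for all 3 genes.

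Some minor fibrillar chains gave calls where the main ones did not. The coefficient of variation within groups was 37.4%, 30.0% and 30.1% for Col1a1, Col1a2 and Col3a1. It was 9.97% for Col27a1, 12.6% for Col5a2 and 27.0% for Col24a1. Col27a1 encodes type XXVII collagen, a chain best known from cartilage. It had a lowest, median and highest of 216, 254 and 267 CPM in PMA_1002, against 334, 370.4, 279 and 394 CPM in PMA_ethanol and 312, 339, 339, 333 and 312 CPM in Control. Every PMA_1002 library lay below every library of the other groups, and PMA_ethanol and Control overlapped. The difference was -0.49 (SE 0.0887, adjusted p = 0.000411) in PMA_1002 versus PMA_ethanol and -0.41 (SE 0.0837, adjusted p = 0.000538) in PMA_1002 versus Control, while PMA_ethanol versus Control gave 0.08 (SE 0.0928, adjusted p = 0.479). Col24a1, another minor fibrillar chain, fell to 3.34 ± 0.733 CPM in PMA_ethanol, against 7.01 ± 1.63 CPM in Control (SD, n = 4 and 5), at -1.003 (SE 0.254, adjusted p = 0.00206) on the log2 scale. It averaged 4.66 ± 1.60 CPM in PMA_1002 and was also called lower than in Control, at -0.60 (SE 0.22, adjusted p = 0.0281), a call that leaving out any of 4 single libraries ended (PMA_1002 2, 3 or 5, or Control 2).

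Type V chains start and limit the thickness of type I fibrils. Col5a2 fell in PMA_ethanol, at -0.27 (SE 0.114, adjusted p = 0.0428), to 502 ± 79.2 CPM against 607 ± 60.2 CPM in Control. That call was lost in 13 of 23 alternatives, with an adjusted p of 0.181 when PMA_ethanol library 3 was left out. Without that library Col5a2 was called lower in PMA_1002 than in Control (adjusted p = 0.0263). Col5a1 was at -0.36 and Col5a3 at 0.05 in the same comparison, and neither passed the test in any of the 3 (adjusted p = 0.179 and adjusted p = 0.691 for PMA_ethanol versus Control). Of the 8 fibrillar chains 2 were called lower in each comparison with Control, 1 in PMA_1002 versus PMA_ethanol, and 0 higher in any of the 3, with 0 at an unadjusted p under 0.05 and 0 by DESeq2. The shares called lower were 25%, 25% and 12.5%, none of them above the 35.9% of all genes in PMA_ethanol versus Control, 26.7% in PMA_1002 versus Control and 18% in PMA_1002 versus PMA_ethanol.

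Basement membrane chains split in opposite directions. Col4a1, Col4a2 and Col18a1 rose in PMA_ethanol, whereas Col4a4, Col4a5, Col4a6 and Col7a1 fell. Type IV collagen is assembled from paired genes that share a start region, head to head. Col4a1 and Col4a2 make the form found in nearly every basement membrane, and Col4a5 and Col4a6 a form of the sheet under epidermis. On GRCm38, Col4a1 (ENSMUSG00000031502) lies on chromosome 8 from 11198423 to 11312826 on the minus strand, and Col4a2 (ENSMUSG00000031503) lies on chromosome 8 from 11312805 to 11449287 on the plus strand. In the same way, Col4a6 (ENSMUSG00000031273) lies on chromosome X from 141165403 to 141474076 on the minus strand, and Col4a5 (ENSMUSG00000031274) lies on chromosome X from 141475385 to 141689234 on the plus strand.

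The promoter windows of these 4 genes are shown because the genes of a pair changed in the same direction and the pairs in opposite directions. Each holds 250 bases before and 50 after the start of transcription, from RefSeq on GRCm38.p6, at chr8:11312777-11313076 (minus strand), chr8:11312555-11312854 (plus), chrX:141475169-141475468 (plus) and chrX:141474027-141474326 (minus). Capitals mark matches on either strand to 6 motifs: the TATA box TATAAA, the CCAAT box CCAAT, the GC box GGGCGG, the AP-1 site TGACTCA, a SOX-type site ACAAAG and, by its consensus, the NF-kB site.
Col4a1: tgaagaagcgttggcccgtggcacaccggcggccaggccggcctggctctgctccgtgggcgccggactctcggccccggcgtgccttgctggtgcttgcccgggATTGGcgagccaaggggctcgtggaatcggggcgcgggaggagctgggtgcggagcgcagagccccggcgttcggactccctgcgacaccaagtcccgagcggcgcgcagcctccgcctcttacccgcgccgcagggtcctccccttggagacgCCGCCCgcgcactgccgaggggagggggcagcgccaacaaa
Col4a2: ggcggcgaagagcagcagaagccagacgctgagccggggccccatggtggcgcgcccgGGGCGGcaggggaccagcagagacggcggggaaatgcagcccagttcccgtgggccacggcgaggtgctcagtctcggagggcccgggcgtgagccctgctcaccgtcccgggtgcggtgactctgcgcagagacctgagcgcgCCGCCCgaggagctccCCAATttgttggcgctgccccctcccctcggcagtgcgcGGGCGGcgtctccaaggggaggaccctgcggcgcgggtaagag
Col4a5: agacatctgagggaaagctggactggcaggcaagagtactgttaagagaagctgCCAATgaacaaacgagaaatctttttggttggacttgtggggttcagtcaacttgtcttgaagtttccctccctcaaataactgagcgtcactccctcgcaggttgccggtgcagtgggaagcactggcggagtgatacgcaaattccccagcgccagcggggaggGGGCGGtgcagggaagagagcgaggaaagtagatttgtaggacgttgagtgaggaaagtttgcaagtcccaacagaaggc
Col4a6: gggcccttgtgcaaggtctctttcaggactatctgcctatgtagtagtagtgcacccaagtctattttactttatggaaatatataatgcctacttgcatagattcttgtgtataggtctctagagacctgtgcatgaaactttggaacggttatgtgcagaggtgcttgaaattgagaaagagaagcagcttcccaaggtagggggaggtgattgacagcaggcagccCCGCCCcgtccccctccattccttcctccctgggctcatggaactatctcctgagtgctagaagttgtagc
The RefSeq starts of Col4a1 and Col4a2 are 21 bases apart, so their windows share 78 bases, and the GC box of Col4a1 is the last GC box of Col4a2 read from the other strand. The starts of Col4a6 and Col4a5 are 1343 bases apart and their windows do not meet. Col4a4 and Col4a3 also lie head to head, on chromosome 1, but no window was found for Col4a3. Of that pair only Col4a4 was called. Each of the 4 windows holds a GC box, 3 of them a CCAAT box, and none the letters of the other motifs. Over all 32851 windows of the same length, 35.7% hold a GC box, 37.4% a CCAAT box, 13.6% a TATA box, 5.2% an AP-1 site, 18.7% a SOX-type site and 0.155% an NF-kB site. Among the 37 windows found for 34 of the 43 chains, 62.2% hold a GC box and 32.4% a CCAAT box. A match is a description of letters and not a binding site.

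Col4a1 had a lowest, median and highest of 319, 330.1 and 397 CPM in PMA_1002, against 492, 511, 444 and 414 CPM in PMA_ethanol. Control libraries held 207, 239, 341, 209 and 268 CPM. Every PMA_ethanol library exceeded every library of both other groups, and PMA_1002 overlapped Control only through Control library 3. Col4a1 rose in PMA_ethanol versus Control by 0.88 (SE 0.127, adjusted p = 1.01e-05). It was lower in PMA_1002 than in PMA_ethanol, at -0.43 (SE 0.122, adjusted p = 0.0109) and still higher than in Control, at 0.45 (SE 0.116, adjusted p = 0.00364).

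Col4a2 had 230.0, 248 and 348 CPM as its lowest, median and highest in PMA_1002, against 367, 391, 289.7 and 310.4 CPM in PMA_ethanol and 201, 239.7, 298, 203 and 234 CPM in Control. The groups overlapped more than for Col4a1, with Control library 3 reaching into PMA_ethanol. Its rise in PMA_ethanol versus Control was 0.53 (SE 0.138, adjusted p = 0.00255), and upper-quartile scaling ended that call (adjusted p = 0.0633). The drop in PMA_1002 versus PMA_ethanol, -0.35 (SE 0.132, adjusted p = 0.0469), was lost in 13 of 23 alternatives. The ratio of Col4a1 to Col4a2 CPM was 1.14 to 1.45 in PMA_1002, 1.31 to 1.53 in PMA_ethanol and 0.997 to 1.15 in Control, so all PMA_ethanol libraries lay above all Control libraries. Reads of the 22 exonic bases that Col4a1 and Col4a2 share cannot be assigned to a strand here, since no source used here gives the strand option of the counting.

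Col18a1, whose product is cleaved to endostatin, followed the same direction. In PMA_1002 its lowest, median and highest were 130.2, 151 and 205 CPM, against 229, 216, 166 and 140.1 CPM in PMA_ethanol and 95.8, 131, 164, 101 and 123 CPM in Control. Libraries 1, 2 and 3 of PMA_ethanol stood above all Control libraries and library 4 did not. It rose in PMA_ethanol versus Control by 0.61 (SE 0.179, adjusted p = 0.0063), and not with upper-quartile scaling (adjusted p = 0.0676). Values were -0.23 (SE 0.171, adjusted p = 0.311) in PMA_1002 versus PMA_ethanol and 0.38 (SE 0.163, adjusted p = 0.0598) in PMA_1002 versus Control.

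Endothelial cells are a known source of Col4a1, Col4a2 and Col18a1. Their 8 markers summed to 229.9 ± 13.7 CPM in PMA_1002, 273 ± 17.0 in PMA_ethanol and 249 ± 19.2 in Control, with ranges of 212 to 249 CPM, 259.9 to 297 CPM and 229.7 to 279 CPM. In PMA_ethanol versus Control 2 of the 8 rose (Cdh5 by 1.13 and Pecam1 by 0.33) and 4 fell (25% and 50%, beside 32.5% and 35.9% of all genes). The 8 log2 fold changes there ran from -1.56 to 1.13, with a median of -0.37. Tek held 3.31 to 7.11 CPM in PMA_ethanol and 14.5 to 18.9 CPM in Control. In PMA_1002 versus PMA_ethanol 1 rose and 2 fell (12.5% and 25%, beside 17% and 18% of all genes). In PMA_1002 versus Control 1 rose and 4 fell (12.5% and 50%, beside 28.4% and 26.7% of all genes). All 8 markers were detected, and their part in the differences of these chains was not tested.

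Col4a5 fell furthest of all chains. It had a lowest, median and highest of 11.9, 14.7 and 23.5 CPM in PMA_1002, against 10.6, 10.2, 8.28 and 11.4 CPM in PMA_ethanol. Control held 40.8, 30.1, 35.4, 44.7 and 43.2 CPM. No 2 groups overlapped, with Control highest and PMA_ethanol lowest. It was lower in PMA_ethanol than in Control, at -1.91 (SE 0.177, adjusted p = 5.09e-08), higher in PMA_1002 than in PMA_ethanol by 0.59 (SE 0.17, adjusted p = 0.0125), and lower in PMA_1002 than in Control, at -1.32 (SE 0.149, adjusted p = 1.4e-06).

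Col4a6, its neighbour, did likewise. PMA_1002 held a lowest, median and highest of 24.5, 27.4 and 36.7 CPM, against 14.9, 13.4, 13.7 and 23.0 CPM in PMA_ethanol and 48.6, 56.0, 43.4, 51.8 and 50.2 CPM in Control. The 3 groups were again apart, although PMA_ethanol library 4 came close to the lowest PMA_1002 library. Fold changes were -1.62 (SE 0.161, adjusted p = 1.26e-07) in PMA_ethanol versus Control, 0.81 (SE 0.155, adjusted p = 0.000672) in PMA_1002 versus PMA_ethanol and -0.81 (SE 0.136, adjusted p = 9.17e-05) in PMA_1002 versus Control.

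Col4a4, a chain of the network that also holds Col4a3 and Col4a5 in kidney, was scarce. Its lowest, median and highest values were 4.68, 5.47 and 7.44 CPM in PMA_1002, against 4.16, 3.15, 3.73 and 4.42 CPM in PMA_ethanol and 6.75, 10.3, 8.56, 9.22 and 8.99 CPM in Control. PMA_ethanol lay below both other groups, and PMA_1002 overlapped Control through its library 6. Differences were -1.19 (SE 0.179, adjusted p = 1.54e-05) in PMA_ethanol versus Control, 0.56 (SE 0.174, adjusted p = 0.0193) in PMA_1002 versus PMA_ethanol and -0.63 (SE 0.153, adjusted p = 0.00219) in PMA_1002 versus Control. The call between PMA_1002 and PMA_ethanol was lost without PMA_ethanol library 2 (adjusted p = 0.0876). Its neighbour Col4a3 was at -0.46, 0.13 and -0.32 in the same order, with adjusted p of 0.098, 0.695 and 0.205, and shares 563 exonic bases with C430014B12Rik on the opposite strand.

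Col7a1 builds the anchoring fibrils that tie epidermis to dermis, and its loss causes blistering. Col7a1 (ENSMUSG00000025650) lies on chromosome 9 from 108953586 to 108984875 on the plus strand. PMA_1002 libraries spanned a lowest, median and highest of 193, 206 and 256 CPM, against 162, 195, 111 and 166 CPM in PMA_ethanol and 317, 362, 353, 307 and 361 CPM in Control. Control stood above both other groups, which overlapped through library 2 of PMA_ethanol. Col7a1 fell in PMA_ethanol versus Control, at -1.09 (SE 0.129, adjusted p = 1.03e-06), rose in PMA_1002 versus PMA_ethanol by 0.41 (SE 0.123, adjusted p = 0.0157) and was lower in PMA_1002 than in Control, at -0.68 (SE 0.113, adjusted p = 8.77e-05). Col15a1, a relative of Col18a1, was called only in PMA_1002 versus Control, at -0.29 (SE 0.112, adjusted p = 0.0373), and that call was lost in 8 of 23 alternatives. Of the exonic bases of Col7a1, 36 are also annotated to Mir711.

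Keratinocyte markers fell in PMA_ethanol, as these chains did, but not in PMA_1002 versus Control. Their 7 genes summed to 27369 ± 1079.7 CPM in PMA_1002, 15358 ± 1756 in PMA_ethanol and 26454 ± 2685 in Control, with ranges of 25661 to 28925 CPM, 13016 to 17134 CPM and 22637 to 29519 CPM. In PMA_ethanol versus Control 6 of 7 fell, and in PMA_1002 versus PMA_ethanol 7 of 7 rose (85.7% and 100%, beside 35.9% and 17% of all genes). Against Control, PMA_1002 had 2 of 7 higher (28.6%, beside 28.4% of all genes). It had 0 lower in edgeR, beside 26.7% of all genes, with 0 lower at an unadjusted p under 0.05 and 0 by DESeq2. Their log2 fold changes there ran from -0.21 to 0.51 with a median of 0.17, while Col4a4, Col4a5, Col4a6 and Col7a1 were called lower. The part of keratinocyte RNA in these chains was not tested.

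Over the 9 basement membrane chains, 3 rose and 4 fell in PMA_ethanol versus Control, 4 rose and 2 fell in PMA_1002 versus PMA_ethanol, and 1 rose and 5 fell in PMA_1002 versus Control. These are 77.8%, 66.7% and 66.7% of the 9, beside 68.4%, 35% and 55% of all genes. Groups did not overlap for 1 higher and 4 lower chains in PMA_ethanol versus Control, where 28.3% and 29.5% of all genes were apart. The same held for 3 higher and 1 lower chain in PMA_1002 versus PMA_ethanol (11.1% and 13% of all genes) and for 3 lower and 0 higher chains in PMA_1002 versus Control (16.5% and 20.3% of all genes).

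**Figure D4:**
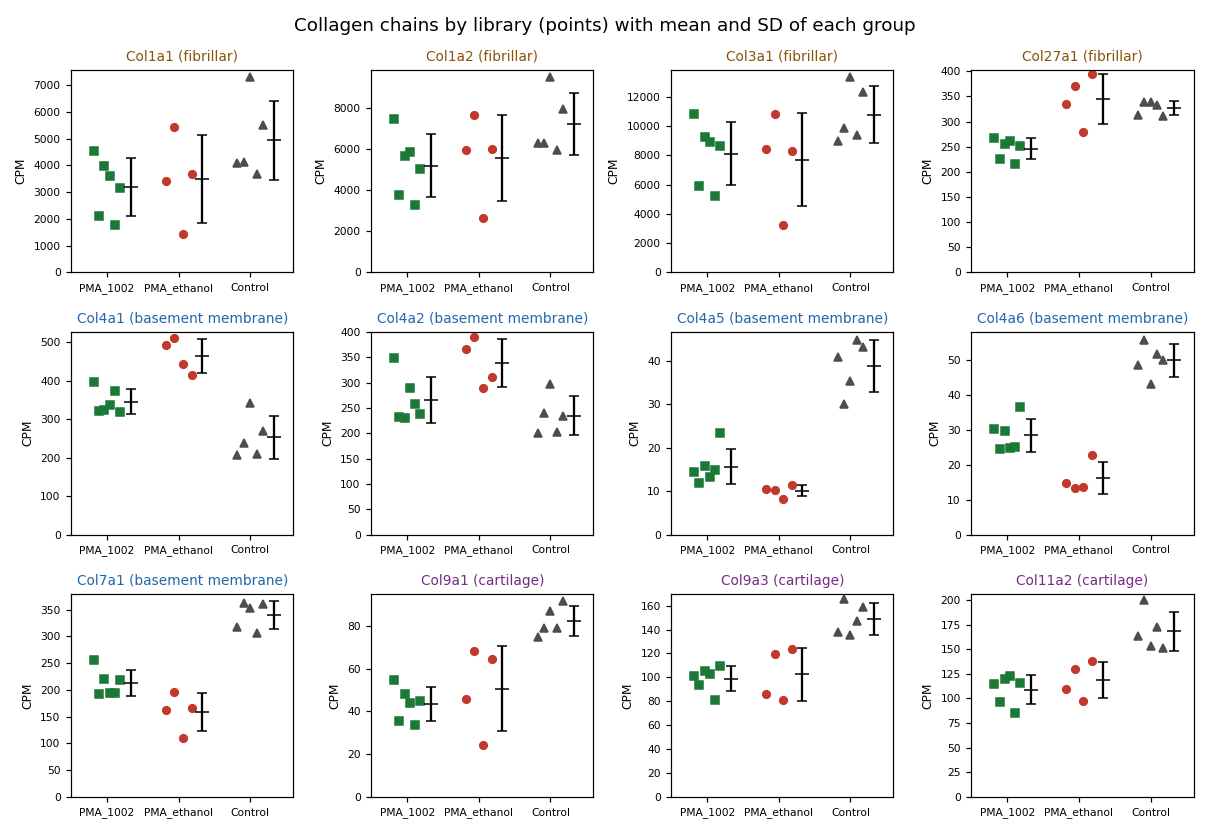
CPM of 12 collagen chains in every library (points, grouped from left to right as PMA_1002, PMA_ethanol and Control) with the group mean and SD to the right of each group and a vertical axis starting at 0. Col4a1 is highest in PMA_ethanol, Col4a5, Col4a6 and Col7a1 are lowest there, and the cartilage chains are highest in Control.

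Cartilage chains of types IX and XI were called lower than in Control in both inflamed groups, except Col11a1, which was called in PMA_1002 alone. Col9a1, Col9a2 and Col9a3 encode type IX collagen, which sits on the surface of type II fibrils, and Col11a1 and Col11a2 encode type XI, which lies in their core. Col9a1, Col9a2, Col9a3 and Col11a2 fell in PMA_ethanol versus Control, and these 4 and Col11a1 fell in PMA_1002 versus Control, with groups that did not overlap in each of those 4 and 5 cases. Of the 7 cartilage chains, 57.1% were thus called lower in PMA_ethanol versus Control and 71.4% in PMA_1002 versus Control, beside 35.9% and 26.7% of all genes, and 29.5% and 16.5% of all genes were lower with groups apart. None of the 7 chains was called in PMA_1002 versus PMA_ethanol, where 3 had an unadjusted p under 0.05 and DESeq2 called 1 lower, Col10a1. The approximate 95% interval of that comparison ran from -0.24 to 0.20 for Col9a2 and from -0.70 to 0.16 for Col9a1.

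Col9a1 had a lowest, median and highest of 33.6, 44.4 and 54.9 CPM in PMA_1002, against 45.6, 68.1, 24.4 and 64.5 CPM in PMA_ethanol and 74.7, 78.8, 87.0, 78.8 and 91.6 CPM in Control. All Control libraries stood above all others, and PMA_ethanol varied most. The fold change was -0.66 (SE 0.213, adjusted p = 0.0123) in PMA_ethanol versus Control and -0.93 (SE 0.19, adjusted p = 0.00076) in PMA_1002 versus Control. It was -0.27 in PMA_1002 versus PMA_ethanol, and without PMA_ethanol library 3 it was called there, at -0.46 (adjusted p = 0.0264).

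Col9a3 had 81.3, 102 and 109 CPM as its lowest, median and highest in PMA_1002, against 86.3, 119.6, 81.1 and 124 CPM in PMA_ethanol and 138, 166, 135, 147 and 159 CPM in Control. Control stood apart here too, and the PMA_1002 and PMA_ethanol libraries overlapped. Col9a3 fell in both comparisons with Control, at -0.52 (SE 0.122, adjusted p = 0.00104) in PMA_ethanol versus Control and at -0.59 (SE 0.109, adjusted p = 0.000214) in PMA_1002 versus Control. It shares 234 exonic bases with Tcfl5 on the opposite strand. Col9a2 averaged 27.0 ± 1.87 CPM in PMA_1002, 27.4 ± 4.07 CPM in PMA_ethanol and 45.6 ± 4.75 CPM in Control, with differences of -0.74 (SE 0.109, adjusted p = 1.25e-05) in PMA_ethanol versus Control and -0.75 (SE 0.0958, adjusted p = 5.37e-06) in PMA_1002 versus Control.

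Col11a2 had a lowest, median and highest of 84.7, 115 and 122 CPM in PMA_1002, against 109, 130.1, 97.7 and 138 CPM in PMA_ethanol and 163, 200.2, 153, 173 and 151 CPM in Control. Control was higher throughout, and the other groups overlapped. The difference was -0.49 (SE 0.123, adjusted p = 0.00189) in PMA_ethanol versus Control and -0.63 (SE 0.11, adjusted p = 0.000134) in PMA_1002 versus Control.

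Col11a1, its partner in the type XI helix, held a lowest, median and highest of 106, 126 and 141 CPM in PMA_1002, against 147, 168, 105 and 171 CPM in PMA_ethanol and 154, 157, 189, 168 and 182 CPM in Control. PMA_ethanol libraries 2 and 4 reached into Control, whereas no PMA_1002 library did. Only PMA_1002 versus Control passed the test, at -0.45 (SE 0.111, adjusted p = 0.00256), and PMA_ethanol versus Control gave -0.20 (SE 0.124, adjusted p = 0.171). The direct comparison of PMA_1002 with PMA_ethanol was -0.26 (SE 0.119, adjusted p = 0.106), and it was called without PMA_ethanol library 3 (adjusted p = 0.00917).

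Col2a1, the main cartilage fibril chain, and Col10a1, the chain of hypertrophic cartilage, were not called in any of the 3 comparisons. Col2a1 ranged over 16.3 to 61.5 CPM in PMA_1002, 19.0 to 92.6 CPM in PMA_ethanol and 33.4 to 93.2 CPM in Control. Col10a1 ranged over 12.5 to 39.6 CPM, 25.7 to 60.4 CPM and 27.3 to 54.7 CPM in the same groups. In PMA_1002 versus PMA_ethanol the values were -0.96 (SE 0.443, adjusted p = 0.113) for Col2a1 and -0.79 (SE 0.332, adjusted p = 0.0811) for Col10a1. Without PMA_1002 library 1, both passed the test there (adjusted p = 0.0458 and 0.0251) and in PMA_1002 versus Control (adjusted p = 0.0409 and 0.046). Without PMA_ethanol library 3, Col2a1 passed in PMA_1002 versus PMA_ethanol, at -1.22 (adjusted p = 0.0373), and without PMA_ethanol library 2, Col10a1 did, at -0.98 (adjusted p = 0.0473). DESeq2 called Col10a1 there (DESeq2 adjusted p = 0.0255).

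Of 11 tested chondrocyte markers, 1 (Snorc) fell in PMA_ethanol versus Control and 3 (Ucma, Cnmd and Snorc) fell in PMA_1002 versus Control, which is 9.09% and 27.3% of them, beside 35.9% and 26.7% of all genes. None was called in PMA_1002 versus PMA_ethanol by edgeR or DESeq2, and 0 had an unadjusted p under 0.05. The 12 markers summed to 1641 ± 185 CPM in PMA_1002, 1653 ± 376 in PMA_ethanol and 1839 ± 331 in Control, with ranges of 1371 to 1886 CPM, 1272 to 2109 CPM and 1475 to 2311 CPM. Acan, the cartilage proteoglycan, was at -0.05 (SE 0.136, adjusted p = 0.759) in PMA_ethanol versus Control and -0.22 (SE 0.122, adjusted p = 0.144) in PMA_1002 versus Control. The part of cartilage content in the Col9 and Col11 differences was not tested.

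Among the 19 remaining chains 16 were tested, of which 2 rose and 4 fell in each comparison with Control and 1 rose and 1 fell in PMA_1002 versus PMA_ethanol. These are 37.5%, 37.5% and 12.5% of the 16, below the 68.4%, 55% and 35% of all genes. Col8a1, a chain of short network-forming collagen known from vessel walls and cornea, was the most abundant of them in CPM. It had a lowest, median and highest of 953, 1103 and 1174 CPM in PMA_1002, against 987, 1017, 753 and 1295 CPM in PMA_ethanol and 1464, 1419, 1283, 1651 and 1501 CPM in Control. PMA_1002 lay wholly below Control, and PMA_ethanol library 4 overlapped the lowest Control library. Col8a1 fell in both comparisons with Control, at -0.53 (SE 0.122, adjusted p = 0.000946) in PMA_ethanol versus Control and at -0.43 (SE 0.109, adjusted p = 0.00324) in PMA_1002 versus Control.

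Its partner Col8a2 fell in PMA_ethanol, to 98.7 ± 19.5 CPM against 125 ± 9.36 CPM in Control, a difference of -0.34 (SE 0.101, adjusted p = 0.00617). It was higher in PMA_1002, at 122 ± 6.01 CPM, than in PMA_ethanol by 0.30 (SE 0.0969, adjusted p = 0.0225), a call lost without PMA_ethanol library 1, 2 or 3 (adjusted p = 0.0799 without library 3).

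Type VI collagen forms beaded filaments around cells and its 3 main chains are made together. Col6a1 had a lowest, median and highest of 796, 905 and 1132 CPM in PMA_1002, against 1025, 1083, 661 and 1037 CPM in PMA_ethanol and 967, 1145, 1178, 955 and 991 CPM in Control. The groups overlapped, and only PMA_ethanol library 3 stood apart, at the bottom. Its fold changes were -0.14 (SE 0.135, adjusted p = 0.379) in PMA_ethanol versus Control, -0.18 (SE 0.121, adjusted p = 0.233) in PMA_1002 versus Control and -0.04 (SE 0.129, adjusted p = 0.858) in PMA_1002 versus PMA_ethanol. The approximate 95% interval of the last ran from -0.31 to 0.24.

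Col6a2 had 695, 754 and 977 CPM as its lowest, median and highest in PMA_1002, against 862, 987, 521 and 861 CPM in PMA_ethanol and 811, 979.7, 1101, 817 and 897 CPM in Control. It overlapped across all groups, again with PMA_ethanol library 3 lowest. No comparison was called, at -0.19, -0.21 and -0.02 for PMA_ethanol versus Control, PMA_1002 versus Control and PMA_1002 versus PMA_ethanol (adjusted p = 0.295, 0.213 and 0.927). Col6a3 was not called either, at 0.13, -0.07 and -0.20 in that order.

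Col6a6, a rarer type VI chain, differed from them. Its lowest, median and highest values were 6.69, 12.3 and 14.9 CPM in PMA_1002, against 12.6, 25.1, 6.62 and 10.8 CPM in PMA_ethanol and 20.8, 22.3, 27.4, 18.9 and 25.3 CPM in Control. PMA_1002 lay below all of Control, and PMA_ethanol library 2 stood among the Control values. It was lower in PMA_1002 than in Control, at -1.003 (SE 0.256, adjusted p = 0.00371). PMA_ethanol versus Control gave -0.65 (SE 0.283, adjusted p = 0.0523), and without PMA_ethanol library 2 the adjusted p was 0.000421.

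Col12a1 and Col23a1 rose. Col12a1 encodes type XII collagen, which binds to the surface of type I fibrils. It had a lowest, median and highest of 218, 237 and 301 CPM in PMA_1002, against 239, 283, 172 and 246 CPM in PMA_ethanol and 144, 163, 248, 142 and 193 CPM in Control. Control library 3 reached into both inflamed groups and library 5 into PMA_ethanol. Its rise was 0.40 (SE 0.162, adjusted p = 0.0357) in PMA_ethanol versus Control, lost in 10 of 23 alternatives, and 0.46 (SE 0.147, adjusted p = 0.0143) in PMA_1002 versus Control, lost with upper-quartile scaling (adjusted p = 0.0859).

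Col23a1, a transmembrane collagen, had a lowest, median and highest of 32.3, 41.2 and 48.1 CPM in PMA_1002, against 49.99, 52.7, 51.7 and 45.8 CPM in PMA_ethanol and 28.7, 37.6, 32.9, 35.8 and 32.9 CPM in Control. PMA_ethanol lay above all Control libraries, and PMA_1002 overlapped both. It rose in PMA_ethanol versus Control by 0.57 (SE 0.108, adjusted p = 0.000159). The value was -0.30 (SE 0.103, adjusted p = 0.0318) in PMA_1002 versus PMA_ethanol and 0.27 (SE 0.0986, adjusted p = 0.0262) in PMA_1002 versus Control, and these calls were lost in 8 and 6 of 23 alternatives. Without PMA_ethanol library 3 the adjusted p in PMA_1002 versus PMA_ethanol was 0.0681.

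The other calls were lower. Col14a1, which like Col12a1 binds fibrils, was at -0.70 (SE 0.284, adjusted p = 0.0414) in PMA_ethanol versus Control and -0.67 (SE 0.252, adjusted p = 0.0354) in PMA_1002 versus Control, calls lost in 14 and 8 of 23 alternatives. Without PMA_ethanol library 3 it was at -0.46 in PMA_ethanol versus Control (adjusted p = 0.0662). Col28a1 fell in PMA_ethanol versus Control, at -0.57 (SE 0.21, adjusted p = 0.0238), lost in 3 alternatives. Col13a1, a transmembrane chain, fell in PMA_1002 versus Control, at -0.65 (SE 0.219, adjusted p = 0.0181), lost without Control library 3. Col16a1, Col20a1, Col22a1, Col25a1 and Col6a5 were not called in any comparison, although without PMA_ethanol library 3 Col25a1 was lower in PMA_1002 than in Control (adjusted p = 0.013).

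Pooled, the genes that process, bind and degrade collagen were called at shares near those of all genes, but single lists differed. They form 4 lists with 57 tested members. In PMA_ethanol versus Control 16 rose and 24 fell (70.2%, beside 68.4% of all genes). In PMA_1002 versus PMA_ethanol 7 rose and 14 fell (12.3% and 24.6%, together 36.8%, beside 17%, 18% and 35% of all genes). In PMA_1002 versus Control 13 rose and 16 fell (50.9%, beside 55% of all genes). By list, PMA_1002 versus PMA_ethanol had calls for 71.4% of breakdown, 66.7% of receptor, 33.3% of fibril-binding and 20.7% of assembly genes. Their medians were -0.22, -0.02 and -0.11, beside -0.07, 0.03 and -0.03 for all genes.

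Of 29 tested assembly genes, 6 rose and 13 fell in PMA_ethanol versus Control (20.7% and 44.8%, beside 32.5% and 35.9% of all genes). Plod3, a lysyl hydroxylase and glycosyltransferase of collagen, rose to 87.7 ± 8.51 CPM in PMA_ethanol, against 40.3 ± 3.49 in Control, by 1.12 (SE 0.0839, adjusted p = 3.72e-09). Loxl4, a cross-linking oxidase, rose by 0.99 (SE 0.126, adjusted p = 2.22e-06) and P3h2, a prolyl 3-hydroxylase, by 0.63 (SE 0.0937, adjusted p = 1.36e-05). P3h4, which takes part in lysyl hydroxylation of collagen, fell to 21.3 ± 0.853 CPM in PMA_ethanol, against 45.3 ± 4.43 in Control, a difference of -1.09 (SE 0.0881, adjusted p = 1.01e-08). Adamts14, a propeptidase, and Plod1, a lysyl hydroxylase, also fell, with log2 fold changes of -1.09 (SE 0.15, adjusted p = 6.73e-06) and -0.87 (SE 0.158, adjusted p = 0.000115). In PMA_1002 versus PMA_ethanol 2 rose and 4 fell (6.9% and 13.8%, beside 17% and 18% of all genes). Among them were P3h4 at 0.68 (SE 0.0849, adjusted p = 1.12e-05), P4ha2 at 0.50 (SE 0.126, adjusted p = 0.00522) and Plod3 at -0.51 (SE 0.0792, adjusted p = 9.49e-05). In PMA_1002 versus Control 4 rose and 9 fell (13.8% and 31%, beside 28.4% and 26.7% of all genes). Plod3 was at 0.61 there (SE 0.077, adjusted p = 4.86e-06) and Adamts14 at -0.85 (SE 0.131, adjusted p = 4.64e-05).

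Of 12 fibril-binding genes, 1 rose and 7 fell in PMA_ethanol versus Control (8.33% and 58.3%, beside 32.5% and 35.9% of all genes). Ogn, a small leucine-rich proteoglycan, fell to 39.4 ± 14.2 CPM in PMA_ethanol, against 127 ± 20.9 in Control, at -1.68 (SE 0.22, adjusted p = 6.97e-06). Its relatives Aspn and Bgn also fell, with log2 fold changes of -1.06 (SE 0.215, adjusted p = 0.000427) and -0.47 (SE 0.0993, adjusted p = 0.000429), while Prelp, of the same family, rose by 0.69 (SE 0.107, adjusted p = 1.99e-05). PMA_1002 versus PMA_ethanol had 3 higher and 1 lower (25% and 8.33%, beside 17% and 18% of all genes). Ogn was at 0.67 there (SE 0.21, adjusted p = 0.0217) and Prelp at -0.37 (SE 0.102, adjusted p = 0.00915). PMA_1002 versus Control had 1 higher and 5 lower (8.33% and 41.7%, beside 28.4% and 26.7% of all genes).

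Collagen receptors changed in both directions, with 5 of 9 higher and 3 lower in PMA_ethanol versus Control (55.6% and 33.3%, beside 32.5% and 35.9% of all genes). Itga2, the alpha chain of a collagen-binding integrin, rose to 87.2 ± 31.2 CPM in PMA_ethanol, against 9.84 ± 1.17 in Control, by 3.13 (SE 0.304, adjusted p = 3.39e-07). The partner chain Itgb1 rose by 1.09 (SE 0.105, adjusted p = 9.02e-08). The discoidin domain receptors, collagen-activated kinases, parted. Ddr2 rose by 0.90 (SE 0.082, adjusted p = 4.42e-08), and Ddr1, the epithelial one, fell by 0.94 (SE 0.099, adjusted p = 2.56e-07). In PMA_1002 versus PMA_ethanol 1 rose and 5 fell (11.1% and 55.6%, beside 17% and 18% of all genes). Ddr1 was at 0.73 there (SE 0.0955, adjusted p = 1.87e-05) and Itga2 at -1.82 (SE 0.269, adjusted p = 0.000112). Against Control, PMA_1002 had 5 higher and 2 lower (55.6% and 22.2%, beside 28.4% and 26.7% of all genes).

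Breakdown genes held the widest changes, with 4 of 7 higher and 1 lower in PMA_ethanol versus Control (57.1% and 14.3%, beside 32.5% and 35.9% of all genes). The collagenase Mmp13 rose to 89.5 ± 43.1 CPM in PMA_ethanol, against 0.449 ± 0.446 in Control, by 7.79 (SE 0.577, adjusted p = 3.29e-08). Mmp8, the collagenase of neutrophils, rose by 6.90 (SE 0.445, adjusted p = 1.13e-09), and the gelatinase Mmp9 by 3.96 (SE 0.194, adjusted p = 4.27e-11). Pepd, which splits proline dipeptides inside cells, fell by 0.45 (SE 0.0987, adjusted p = 0.000675). In PMA_1002 versus PMA_ethanol 4 fell and 1 rose (57.1% and 14.3%, beside 18% and 17% of all genes). Mmp13 was at -3.45 there (SE 0.37, adjusted p = 9.12e-06), Mmp9 at -2.49 (SE 0.167, adjusted p = 4.2e-08) and Mmp14, a membrane-bound collagenase, at -0.63 (SE 0.0973, adjusted p = 9.27e-05). PMA_1002 still exceeded Control in 3 of 7 (42.9%, beside 28.4% of all genes), and Mmp8 was at 5.30 (SE 0.447, adjusted p = 8.31e-08). It was lower in 0, beside 26.7% of all genes, with 0 lower at an unadjusted p under 0.05 and 0 by DESeq2. Neutrophil markers summed to 378 ± 85.3 CPM in PMA_1002, 1912 ± 605 in PMA_ethanol and 19.2 ± 4.43 in Control, and all 5 were detected in each group. All 5 rose in PMA_ethanol and in PMA_1002 versus Control, where 32.5% and 28.4% of all genes rose. All 5 were lower in PMA_1002 than in PMA_ethanol, beside 18% of all genes. Their part in the Mmp8 and Mmp9 values was not tested.

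**Figure D5:**
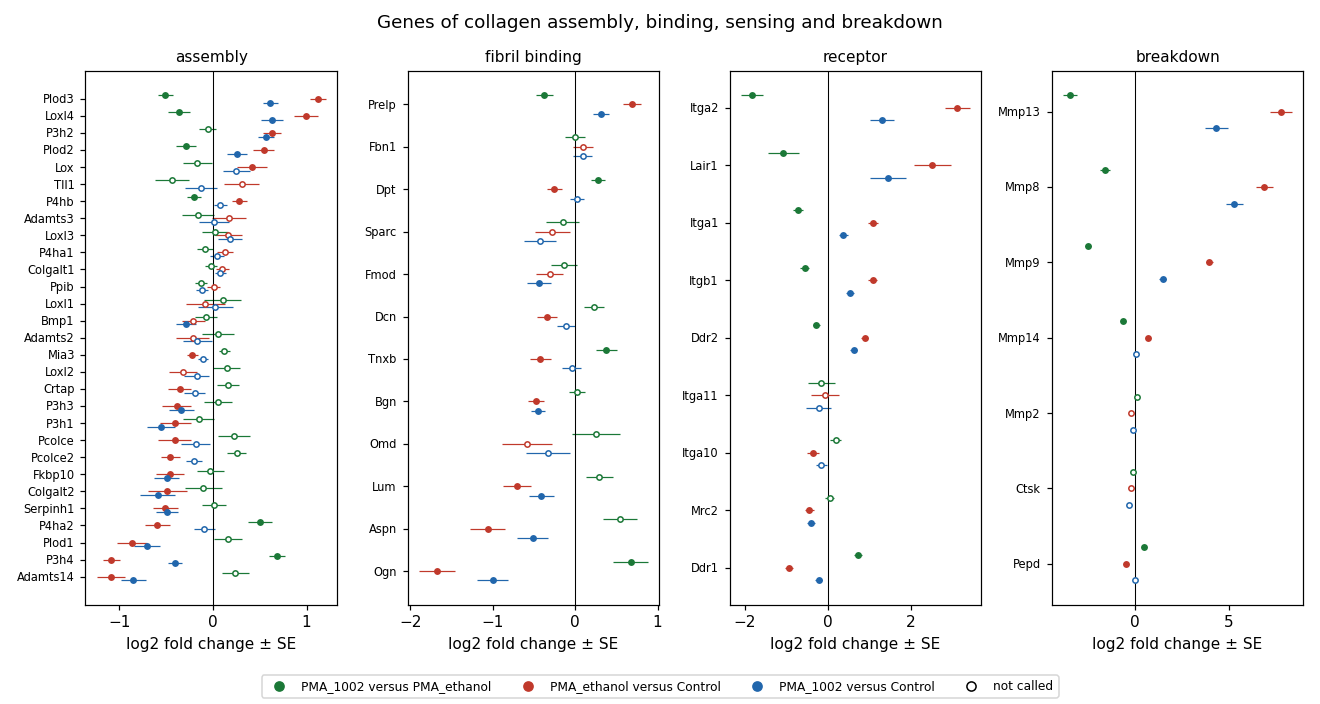
Log2 fold change with its SE for 57 genes of collagen assembly, fibril binding, sensing and breakdown in 3 comparisons, with filled points for genes called by edgeR and a horizontal scale of its own in each panel. Mmp13, Mmp8 and Mmp9 reach 7.79, 6.90 and 3.96 in PMA_ethanol versus Control, and the assembly genes stay between -1.09 and 1.12.

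Of the other cell types that ear tissue holds, the fibroblast list had 2 of 10 markers higher and 6 lower in PMA_ethanol versus Control, and 3 of them (Dcn, Lum and Dpt) are also in the fibril-binding list. Their sums were 3459 ± 319 CPM in PMA_1002, 3113 ± 368 in PMA_ethanol and 3678 ± 346 in Control. Of 5 Schwann cell markers 4 fell in that comparison, and of 5 macrophage markers 2 rose and 1 fell. The adipocyte list had 1 of 6 lower, the smooth muscle and pericyte list 2 of 5 lower, and the skeletal muscle list 0 of 10 called in edgeR, with 0 at an unadjusted p under 0.05 and 0 by DESeq2. Beside these lists, 32.5% of all genes were higher and 35.9% lower in PMA_ethanol versus Control. Skeletal muscle sums ranged over 1437 to 2941 CPM in PMA_1002, 812 to 3702 CPM in PMA_ethanol and 1260.4 to 3891 CPM in Control.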

How the data were processed

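Ear RNA was measured in 15 libraries. PolyA RNA went into stranded libraries, per the labels' protocols. The submitters' processing notes name GRCm38 and the tools STAR 2.5, HTSeq, FastQC 0.11.5 and MultiQC 0.8. No source used here gives the strand option or the annotation release, so overlapping genes are uncertain. The authors deposited raw read counts per gene, not normalized. Reads given to no gene, 28.5% to 32.85% of each table, stayed out of library sizes and tests, and multi-position reads alone made up 15.98% to 20.12% of a table.

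Symbols came from GENCODE M21 on GRCm38, which names 48349 of 48795 identifiers. Groups came from sample titles. The tests ran in edgeR 4.0.16 under R 4.3.3 (TMM scaling, filterByExpr by group, robust quasi-likelihood fit over all libraries with group as the only term, Benjamini-Hochberg adjustment over 14991 genes, threshold 0.05). SE were derived from the F statistic, and intervals are approximate. CPM per kilobase used the principal transcript. Alternatives were RLE and upper-quartile scaling, no filter, non-robust estimation, the replicate block, only the groups compared, DESeq2 1.42.0, each library left out, and, chosen after seeing the data, the hair follicle level as a covariate. The test was tested on simulated data. Libraries of 1 group differed by a chi-square per degree of freedom of 2.927 to 27.02 over 31 pairs, so none was treated as a repeat. The counting precision of a level follows the depth.

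The members, classes and gene lists were chosen with earlier results of these data known. In each class the 3 chains of highest mean CPM, and for each comparison and direction the 3 called chains with the largest change and a group mean of at least 5 CPM, are given library by library (for PMA_1002, as the lowest, median and highest), 21 chains in all. Of each list of other collagen genes, up to 3 called genes per direction with the smallest adjusted p could be named. Krt85 of the hair follicle list was not analysed here. Promoter windows came from RefSeq.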

Additional observations from a re-analysis of the deposited data

Results flagged for a closer look

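Of 63 groups of libraries examined for the 21 chains given library by library, 3 held a library set apart from the rest of its group, and chance gives about 1 in 20 groups. Col4a5 in PMA_1002 had its highest value, 23.5 CPM, in library 6, above 15.7 CPM in the next library. Col4a6 in PMA_ethanol had its highest value, 22.98 CPM, in library 4, above 14.9 CPM in the next. Col6a1 in PMA_ethanol had its lowest value, 661.5 CPM, in library 3, below 1025 CPM in the next.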

How the results depend on the processing

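Of 47 called values of single chains, 30 were called in all 23 alternatives and 47 kept their direction in all of them. Of 73 uncalled values, 42 were called in none. Under upper-quartile scaling the median log2 fold change of all genes shifted, the shift being -0.24 in PMA_ethanol versus Control, -0.16 in PMA_1002 versus Control and 0.08 in PMA_1002 versus PMA_ethanol, and the share of higher among all calls was 33.6%, 34.6% and 61.8%, beside 47.5%, 51.5% and 48.7% with TMM. With it, 2 chains were lower in PMA_1002 versus PMA_ethanol, 2 were higher and 25 lower in PMA_ethanol versus Control, and 1 was higher in PMA_1002 versus Control. Leaving out each library gave 3 to 5 higher and 2 to 7 lower chains in PMA_1002 versus PMA_ethanol, 4 to 6 and 11 to 16 in PMA_ethanol versus Control, and 2 to 4 and 13 to 20 in PMA_1002 versus Control. In PMA_1002 versus PMA_ethanol, lower chains numbered 7 without PMA_1002 library 1 or PMA_ethanol library 3 and 2 without PMA_1002 library 2, and higher chains 3 without PMA_ethanol library 2. The causes were not tested.

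With the replicate number as a block, 2 chains were higher in PMA_1002 versus PMA_ethanol, and Col4a4, Col7a1 and Col8a2 lost that call (edgeR adjusted p = 0.0866, 0.0531 and 0.0613). There the block also ended the lower calls of Col4a2 and Col23a1 (adjusted p = 0.18 and 0.108) and added Col10a1 (adjusted p = 0.0485). In PMA_ethanol versus Control it ended the calls of Col5a2, Col12a1 and Col14a1 (adjusted p = 0.0823, 0.0933 and 0.111) and added Col6a6 (adjusted p = 0.0408). In PMA_1002 versus Control it ended those of Col14a1, Col15a1 and Col24a1 (adjusted p = 0.121, 0.112 and 0.0629) and added Col10a1 and Col28a1 (adjusted p = 0.0284 and 0.0439). The numbers do not pair the libraries in the labels. Of 13 same-numbered pairs 2 had a correlation over 0.1 (-0.533 to 0.579), and 1 of 14 libraries correlated best with its own number. The depth of PMA_ethanol library 3 limits what can be read of scarce chains.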
